A study of Mus musculus with 16 samples.

Results

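The annulus fibrosus of tail discs, the fibrous ring of the intervertebral disc, was compared between postnatal day 21 (P21) and postnatal day 14 (P14) of the mouse, across all genes. The comparison used 8 of the 16 samples of the series, 4 at each age, taken by their labelled age; the other 8 were at P5 and P28. All mice were wild-type C57BL/6, and neither age had a treatment. Each sample was a pool of 2 to 3 mice of both sexes with 10 discs per mouse, from which the nucleus pulposus and the cartilage endplates were dissected away and discarded. Total RNA was depleted of ribosomal RNA and sequenced as read pairs of 150 bases. Values are normalised reads, that is, read counts divided by a size factor for each sample.

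The annulus holds the gelatinous nucleus pulposus in place and ties neighbouring vertebrae together. Its cells are fibroblast-like in the outer layers and closer to chondrocytes in the inner ones, and they lay down sheets of type I and type II collagen with proteoglycans between them. In the first weeks after birth the disc grows quickly, and growth then slows. Gene groups known from this time of life include the imprinted growth genes, the matrix proteins that guide fibril assembly, and the ligands and antagonists of BMP, Wnt and FGF signalling.

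Samples held 10549937 to 23719004 reads at P14 and 17380812 to 22084986 at P21, and 17577 genes were tested. Gm26917, a transcript that shares sequence with ribosomal RNA, took 9.05% and 8.05% of the reads in P14 replicates 3 and 4 and 1.79% to 5.12% in the other 6 samples; mitochondrially encoded genes took 15.0% and 10.6% there and 2.62% to 4.61% elsewhere. P14 replicate 2 and P21 replicates 1 and 2 carried the most transcripts of nervous tissue, and P21 replicates 3 and 4 carried less. Snap25, a gene of the presynaptic membrane, had 2.73, 269.5, 7.88 and 1.44 normalised reads at P14 and 840.1, 748, 44.8 and 35.7 at P21, replicates 1 to 4 in order as everywhere below. P21 replicates 3 and 4 were close to identical, with a chi-square per gene of 2.63 against at least 26.5 in every other pair of one age. They were kept as 2 samples, and the labels do not say if they were separate pools. They differed by more than counting error, but 2 libraries of 1 pool can do so too. Against the label of both sexes, P14 replicate 3 had 528 normalised reads of Xist, made from the inactive X chromosome, where the other 7 samples had at least 9172, and P14 replicate 4 had 11.5 of the Y-linked Kdm5d, where the others had at least 206. P-values here rest on a spread between pools estimated over all 16 samples of the series and drawn towards a trend with abundance. They do not measure the spread of these 8 pools alone. Annulus collagens were abundant in all 8 samples: Col1a1 took 9.03% to 16.9% of the reads and Col2a1 5.64% to 10.1%.

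Of the 17577 genes, 122 were higher at P21 (0.694%) and 119 lower (0.677%), together 241 or 1.37%, at an adjusted p under 0.05. The median log2 difference was 1.32 over the genes called higher and -1.08 over those called lower, while the median over all genes was -0.02. Bracketed differences below are log2, P21 minus P14, ± SE. All 4 P21 samples lay above all 4 P14 samples in 810 genes, called or not (4.61%), and below them in 660 (3.75%). Of the genes called, 120 of the 122 that rose and 91 of the 119 that fell were protein coding. These counts rest on P21 replicates 3 and 4 being separate samples: with the pair averaged into 1 sample, 6 genes were higher and 7 lower. The 13 were Gbp4, Nlrc5, Iigp1, Sbsn, Pdxk and Nedd4l above, and Capn6, Plagl1, Fbn2, Rny1, Rny3 and 2 further small RNAs below; Pdxk, Nedd4l and the small RNAs are named after their values were seen. Every other call given below missed the threshold in that fit, with adjusted p up to 0.184, and is not repeated gene by gene. Without the 3 samples with the most nervous tissue transcripts, 353 genes were higher and 351 lower, and 195 of the 241 calls were kept. That fit has only the near-identical P21 replicates 3 and 4 at P21, which may be 1 pool, so its spread may be too small and its counts do not show stability. In the 6 samples with a Gm26917 share under 6%, 1 gene was called. The log2 differences of the 241 genes there had a median of 0.92 times their full size, and none was under 0.5 times. The 6 include all 4 P21 samples, and the 241 genes were chosen on the same values, so these ratios do not show stability.

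**Figure D1:**
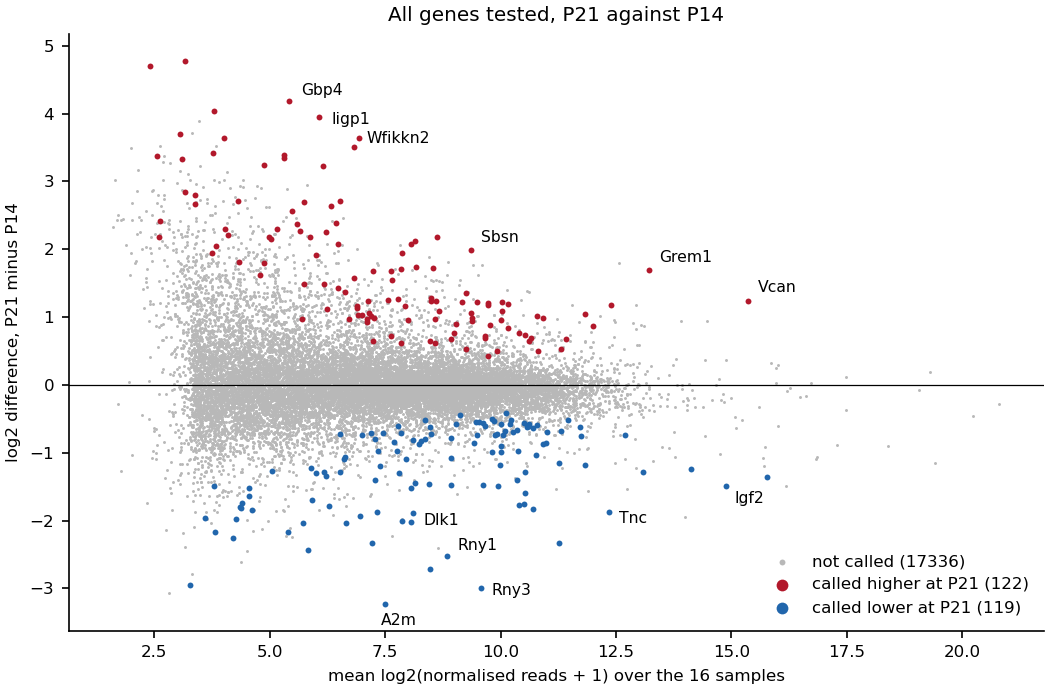
Log2 difference between P21 and P14 (y axis, P21 minus P14) against the mean log2(normalised reads + 1) over the 16 samples (x axis) for each of the 17577 genes tested; red points are the 122 genes called higher, blue the 119 called lower and grey the rest. The called genes lie on both sides of 0 over most of the range of levels, but the most abundant genes, such as Col1a1, were not called. The largest rises are among genes of low level, and Grem1, Vcan and Igf2 are among the abundant called genes.

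The split between higher and lower depended on the scaling. With every sample rescaled to the same total, the median over all genes moved by 0.24 on the log2 scale and 468 genes were higher and 51 lower, which raised the share of higher calls from 50.6% to 90.2%. Of the original calls, 121 of the 122 genes above and 51 of the 119 below were kept under that scaling. Every called gene named below kept its direction under it, but Foxa3, Mest, Igf2, Col16a1, Emilin1, Adamts3, Mmp2, Foxc2, Rmrp, Phgdh, Gpt2, Iars, Esr1 and Cul7 missed the threshold, with adjusted p of 0.0561 to 0.124.

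Among the genes with the largest rises were those for guanylate-binding proteins and immunity-related GTPases, 2 families of large GTPases that cells make in response to interferon and that attack the compartments in which microbes live. They were counted as families after the first of them were seen among the leading genes. Of their 15 members tested, 10 were called higher and 0 lower, against 0.694% and 0.677% of all genes. Wholly above P14 lay 14 and wholly below it 1, against 4.61% and 3.75%. The median log2 difference was 3.00 against -0.02 over all genes. Gbp4 (ENSMUSG00000079363, chromosome 5, 105115767 to 105139586, build GRCm38), a guanylate-binding protein gene, had 19.1, 17.4, 11.8 and 8.65 normalised reads in the 4 P14 samples and 242, 187, 306 and 351 in the 4 P21 samples. Its log2 difference was 4.18 ± 0.53 (SE; adjusted p = 0.00209), an 18.1-fold rise on the scale of value plus 1, and it stayed called with P21 replicates 3 and 4 averaged (adjusted p = 0.0157). Iigp1, an immunity-related GTPase, had 22.8, 24.9, 23.6 and 15.9 at P14 and 757, 183, 333 and 307 at P21, a log2 difference of 3.94 ± 0.60 (SE; adjusted p = 0.00915). Every P21 sample lay above every P14 sample in both genes, and P21 replicate 1 was the highest for Iigp1. Gbp2 had 37.3, 40.6, 19.7 and 34.6 at P14 and 607, 127, 345 and 339.9 at P21 (3.23 ± 0.61, adjusted p = 0.0171), with P21 replicate 2 the lowest of its age. In a bulk sample, more cells of a type and more RNA per cell cannot be told apart.

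In the other members too, P21 replicate 2 was mostly the lowest sample of its age. Tgtp2, a T cell-specific GTPase, had 6.37, 8.29, 5.91 and 1.44 at P14 and 272, 51.1, 67.2 and 85.0 at P21 (4.04 ± 0.73, adjusted p = 0.0152), and its near-identical neighbour Tgtp1, whose reads may be split with it, had 4.55, 2.49, 0 and 0 at P14 and 120.4, 23.7, 63.5 and 55.6 at P21 (4.78 ± 0.77). Gbp7 had 34.6, 52.2, 23.6 and 36.0 at P14 and 394, 134, 238 and 245 at P21 (2.71 ± 0.49, adjusted p = 0.0152). Gbp3 (3.25), Gbp5 (3.64), Gbp9 (2.56) and Irgm2 (2.08) were also called higher, in log2 differences. The paralogs lie in clusters of similar sequence, so the share of reads given to each single member is uncertain. Gbp6, Igtp, Ifi47 and Irgm1 were not called, with log2 differences of 2.90, 2.63, 3.00 and 1.24 and adjusted p of 0.0673, 0.0808, 0.0679 and 0.0609. Irgq was the 1 member wholly below P14, with 416, 456, 526 and 458 at P14 and 319.9, 357, 399.8 and 396 at P21 (-0.33 ± 0.13, adjusted p = 0.234). With P21 replicates 3 and 4 averaged, 2 of the 15 were called, and without the samples with the most nervous tissue transcripts, with only that pair at P21, 9 were.

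Promoters of these genes are shown because the members moved together. The RefSeq promoter table for build GRCm38.p6 holds 250 bases before to 50 after a start, and it matched 11 of the 15 tested members with 12 promoters. They were searched on both strands for TTCNNNGAA, the form bound by STAT factors, and for GAAANNGAA, the repeat bound by interferon regulatory factors. Among the 12, 6 held the first and 9 (75.0%) the second, and 6 held both. The 12 are not independent: Tgtp1 and Tgtp2, and likewise Igtp and Irgm2, share long stretches of promoter sequence, and all of these hold both. Of the 14846 promoters of genes tested, 6.78% held the first, 7.15% the second and 0.70% both. A match is a description of the letters in the window and not of a bound site. Matches are in capitals in the 4 promoters below, each from a gene called higher, and the 2 kinds of match do not overlap in them.
Gbp2 (chr3:142620413-142620712, plus strand): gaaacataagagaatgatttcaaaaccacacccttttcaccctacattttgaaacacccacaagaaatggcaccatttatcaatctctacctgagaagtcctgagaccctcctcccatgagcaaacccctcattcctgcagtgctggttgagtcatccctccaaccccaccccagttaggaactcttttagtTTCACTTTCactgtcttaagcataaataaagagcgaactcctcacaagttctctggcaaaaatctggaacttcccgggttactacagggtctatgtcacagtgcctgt
Gbp7 (chr3:142530086-142530385, plus strand): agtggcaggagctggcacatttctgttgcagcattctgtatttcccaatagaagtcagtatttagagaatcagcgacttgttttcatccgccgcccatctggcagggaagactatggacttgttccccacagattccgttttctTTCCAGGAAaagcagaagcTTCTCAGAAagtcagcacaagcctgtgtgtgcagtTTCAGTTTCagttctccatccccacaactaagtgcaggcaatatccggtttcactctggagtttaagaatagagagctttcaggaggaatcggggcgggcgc
Tgtp2 (chr11:49064163-49064462, minus strand): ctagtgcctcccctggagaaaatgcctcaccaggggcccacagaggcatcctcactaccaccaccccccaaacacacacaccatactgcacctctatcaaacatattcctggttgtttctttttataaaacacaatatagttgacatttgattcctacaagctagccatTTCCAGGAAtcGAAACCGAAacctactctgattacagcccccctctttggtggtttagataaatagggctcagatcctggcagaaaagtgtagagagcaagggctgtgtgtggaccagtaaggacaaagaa
Irgm2 (chr11:58214727-58215026, plus strand): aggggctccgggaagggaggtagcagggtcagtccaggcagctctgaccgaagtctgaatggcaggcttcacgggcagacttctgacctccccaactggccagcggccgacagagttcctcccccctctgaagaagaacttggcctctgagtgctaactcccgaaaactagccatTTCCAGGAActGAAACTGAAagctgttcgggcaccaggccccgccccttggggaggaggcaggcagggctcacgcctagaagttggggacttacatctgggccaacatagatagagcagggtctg

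Tgtp2 and Irgm2 share a layout, with a match to the STAT form starting 81 and 75 bases before the start and the other repeat starting 70 and 64 bases before it. Gbp7 holds the STAT form at 106 and 87 bases before the start and the other repeat at 52. Gbp2 holds the interferon regulatory factor repeat alone, 58 bases before the start. Of the 12 promoters, 3 held neither form: those of Ifi47, of Irgq and of 1 of the 2 starts of Gbp3.

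Genes of antigen presentation on class I molecules were also listed after the leading genes were seen. Of 16 tested, 4 were called higher and 0 lower, against 0.694% and 0.677% of all genes. The median log2 difference of the 16 was 0.96, and 8 lay wholly above P14 (4.61% of all genes did). The same promoter search matched 13 of them with 14 promoters. The STAT form was in 1 (7.14%), the other repeat in 3 (21.4%) and both in 0, against 6.78%, 7.15% and 0.70% of promoters of genes tested. Nlrc5, the transactivator of class I genes, had 11.8, 24.1, 3.94 and 10.1 at P14 and 139, 148, 97.1 and 102 at P21, a log2 difference of 3.38 ± 0.52 (SE; adjusted p = 0.00915), and stayed called with the pair averaged (adjusted p = 0.0385). Tap1, a subunit of the peptide transporter, had 92.8, 86.2, 37.4 and 80.7 at P14 and 337, 159.9, 181 and 209 at P21 (1.58 ± 0.35, adjusted p = 0.0347). Tapbp, which tethers class I molecules to that transporter, had 851, 844, 529.9 and 675 at P14 and 1716, 934, 1503 and 1494 at P21 (0.95 ± 0.19), and H2-Q4, a nonclassical class I gene, 61.9, 71.3, 51.2 and 60.6 at P14 and 149, 134, 201 and 188 at P21 (1.43 ± 0.28). For these 2 genes 29.0% and 19.1% of the exonic bases overlap other annotated genes. The levels of B2m, the light chain of class I molecules, overlapped between the ages, with 1690, 2794, 1066 and 1916 at P14 and 4570, 1750, 4238 and 4284 at P21 (log2 difference 0.98 ± 0.32, adjusted p = 0.136). Psmb9, an immunoproteasome subunit, lay above P14 in all 4 samples without a call (2.30, adjusted p = 0.0528).

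The wider list of interferon response genes, most of them known as targets of type I interferon, had 3 of 21 members called higher and 0 lower. Of all genes 0.694% were called higher. The list's median log2 difference was 1.26, and 20 of 21 members had a positive difference. Wholly above P14, where 4.61% of all genes lay, were 11 members. Among them were Xaf1, an apoptosis regulator, and Ifit2, an RNA-binding antiviral protein. Xaf1 had 43.7, 70.5, 15.8 and 36.0 at P14 and 196, 122, 200.3 and 209.7 at P21 (2.25 ± 0.46), and Ifit2 72.8, 102, 90.6 and 79.3 at P14 and 212, 108, 244 and 229 at P21 (1.14 ± 0.24). No member of the list was called with P21 replicates 3 and 4 averaged, while DESeq2 on the recovered reads called 11 higher.

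Further genes of this response, picked after their values were seen, were called higher as well. Cxcl9, a chemokine induced by interferon gamma, had 0.91, 1.66, 0 and 0 at P14 and 84.9, 16.1, 36.6 and 41.3 at P21 (4.70 ± 0.87), so it was at or under 2 normalised reads in every P14 sample. Cd274, the gene of the checkpoint ligand PD-L1, had 7.28, 18.2, 3.94 and 11.5 at P14 and 79.8, 20.8, 57.5 and 43.7 at P21 (2.22 ± 0.51). The complement gene C3 had 33.7, 60.5, 21.7 and 15.9 at P14 and 166, 96.5, 178 and 118 at P21 (2.18 ± 0.46). Among sensors of foreign RNA, Ifih1 rose by 1.49 ± 0.30 and Eif2ak2 by 0.64 ± 0.15, and the giant ubiquitin ligase Rnf213 by 1.18 ± 0.26, all on the log2 scale. At P28 the levels spread widely, with 59.0, 198, 20.7 and 32.8 for Gbp4, 166, 417, 50.3 and 92.7 for Iigp1 and 11.8, 37.8, 0 and 4.92 for Cxcl9, and at P5 Gbp4 had 7.63 to 20.8.

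**Figure D2:**
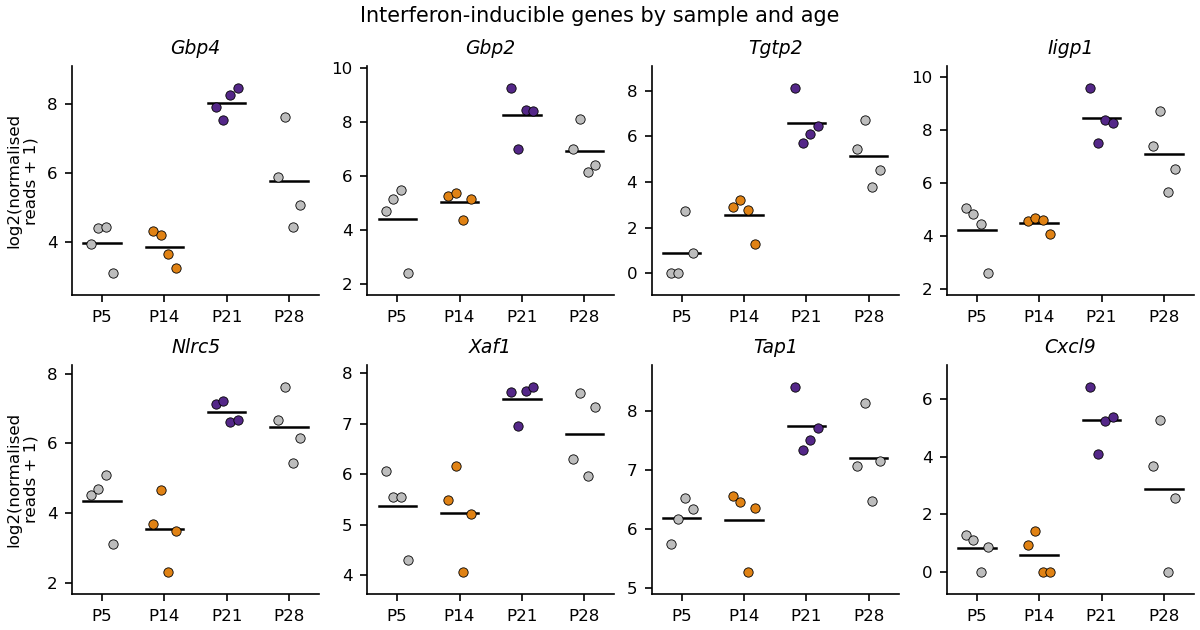
Log2(normalised reads + 1) (y axes, which do not start at 0) of 8 interferon-inducible genes in each of the 4 samples of P5, P14, P21 and P28 (x axes), with P14 in orange and P21 in purple; bars are means. The P21 points lie above all P14 points in each of the 8 genes, and the P28 points are spread widely.

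The summed levels of neutrophil and macrophage markers were above every P14 sample in 3 of the 4 P21 samples. No member of the neutrophil list (0 of 10 tested), the macrophage list (0 of 10) or the B cell list (0 of 7) was called. Outside these lists, Chil3 and Ms4a4c, genes of myeloid and blood-derived cells given below, were called higher. No list of T or natural killer cell markers was made. Of the listed markers in the table none was at 0 in all samples of an age. Prtn3 and Cebpe of the neutrophil list and Vpreb1 and Igll1 of the B cell list were not analysed here. The median log2 differences were 1.38, 0.60 and 1.01. The neutrophil markers summed to 160 to 1123 normalised reads at P14 and to 4315, 429, 1204 and 1211 at P21, and the macrophage markers to 572 to 861 at P14 and to 2411, 789, 1286 and 1190 at P21. Lyz2, the lysozyme gene of macrophages and neutrophils, had 245, 342, 169 and 219 at P14 and 1307, 384, 747 and 719 at P21 (log2 difference 1.60 ± 0.47, adjusted p = 0.105), and Ngp, a neutrophil granule gene, 187, 357, 41.4 and 200.4 at P14 and 1226, 94.6, 403 and 383 at P21 (adjusted p = 0.459). In P21 replicate 2 both sums lay within the P14 range, while the 15 GTPases summed to 1646 there against 778 to 859 at P14. The sums of the GTPases in the other P21 samples were 4305, 2730 and 2812. The highest sample was P21 replicate 1 for all 3 sums, and the part of these cells in the rise there was not tested.

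Genes of fetal and juvenile growth, many of them imprinted and abundant in fast-growing young tissue, had calls only below P14. Of 22 members tested, 7 were called lower and 0 higher, against 0.677% and 0.694% of all genes. Wholly below P14 lay 9, against 3.75% of all genes. Of the 22, 20 had a negative difference, and the median was -1.12. Igf2 (ENSMUSG00000048583, chromosome 7, 142650766 to 142666816), which codes for a fetal growth factor related to insulin, had 87500, 32560, 39710 and 45320 normalised reads in the 4 P14 samples and 23900, 22000, 11300 and 13630 in the 4 P21 samples. Its log2 difference was -1.50 ± 0.33 (SE; adjusted p = 0.0351), 2.82-fold lower, and P14 replicate 1 stood highest. Other annotated genes on either strand cover 64.5% of its exonic bases, and whether counting used strand is not given in the sources used here. H19, the imprinted noncoding RNA beside Igf2, picked after its values were seen, had 54080, 16950, 29700 and 33640 at P14 and 18780, 9491, 4161 and 5604 at P21 and missed the threshold (-1.95 ± 0.47, adjusted p = 0.0538).

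Plagl1, an imprinted zinc finger gene known as a hub of this network, had 15750, 10680, 12400 and 13950 at P14 and 5288, 5579, 5223 and 5463 at P21, a narrow P21 group. Its log2 difference was -1.28 ± 0.17 (SE; adjusted p = 0.00273), and the call was kept with P21 replicates 3 and 4 averaged (adjusted p = 0.0201). Dlk1, a Notch ligand-like gene of progenitor cells, had 712, 366, 388 and 639 at P14 and 163, 129.6, 91.2 and 176 at P21 (-1.89 ± 0.35, adjusted p = 0.017). Cdkn1c, a cyclin-dependent kinase inhibitor, had 3730, 2464, 1596 and 4222 at P14 and 1317, 639, 614 and 753 at P21 (-1.83 ± 0.34, adjusted p = 0.017), and Mest, an imprinted hydrolase-like gene, 3935, 1810, 1332 and 1298 at P14 and 1034, 590.5, 276 and 534 at P21 (-1.77 ± 0.42, adjusted p = 0.0479). For Cdkn1c and Mest, 30.7% and 23.1% of the exonic bases overlap other annotated genes. Sfrp1, a secreted Wnt inhibitor, fell from 68.0 to 138 at P14 to 29.3 to 60.2 at P21 (-1.34 ± 0.27). With the pair averaged 1 member of the list was called, and with samples rescaled to the same total 5 were. The 10 called, all lower, without the samples with the most nervous tissue transcripts rest on that pair alone at P21.

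Further steep falls lay outside the list. Capn6, a calpain-like gene of the X chromosome without protease activity, had 3430, 1446, 1889 and 1886 at P14 and 942, 526, 458 and 609 at P21 (-1.75 ± 0.26, adjusted p = 0.00915, and adjusted p = 0.0396 with the pair averaged). Nrk, an X-linked kinase, had 3305, 1635, 1753 and 2540 at P14 and 1068, 896, 471 and 631 at P21 (-1.60 ± 0.27). Prss35, a serine protease-like gene, fell from 252 to 508 at P14 to 77.6 to 213 at P21 (-1.53 ± 0.28). For Capn6 the P5 samples had 6156 to 10940 and the P28 samples 369 to 576, and for Dlk1 4314 to 6862 and 8.88 to 29.1. The P14 and P21 values of Dlk1 lay between the outer ages, while those of Capn6 at P21 overlapped P28. Cul7, a ubiquitin ligase scaffold needed for normal growth and picked after its values were seen, fell from 1627 to 1962 at P14 to 1050 to 1451 at P21 (-0.63 ± 0.11).

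Calls among matrix genes were uneven between lists, against 1.37% of all genes. They were 3 of 18 fibril-associated, network and type VI collagens, 2 of 19 elastic fibre and microfibril genes, 2 of 22 matrix glycoproteins, 2 of 21 proteases and inhibitors and 1 of 17 genes of cartilage-type matrix. Of the 11 fibrillar collagen genes 0 were called, and their median log2 difference was -0.27. Of the 13 small leucine-rich proteoglycans 0 were called (median -0.52), and of the 31 genes of collagen processing and crosslinking 1 was (median -0.33). Col1a1, the chain that makes up most of the annulus fibrils, had 1867000, 3329000, 2300000 and 2347000 at P14 and 1439000, 2579000, 2008000 and 2102000 at P21 (-0.27 ± 0.87, adjusted p = 0.926). Its partner Col1a2 had 524900, 995700, 650200 and 712600 at P14 and 524500, 701100, 736200 and 730700 at P21 (-0.07 ± 0.53, adjusted p = 0.968), and the cartilage collagen Col2a1 1775000, 1787000, 1172000 and 1312000 at P14 and 976500, 1275000, 1026000 and 1088000 at P21 (-0.45 ± 0.73, adjusted p = 0.835). The SEs of these 3 genes were 0.53 to 0.87 on the log2 scale, larger than their printed values alone would give. The fit draws each gene's variance towards a trend with abundance over all genes tested. With these SEs differences of the size measured could not be called, so the lack of a call does not show steady levels. Acan, the main aggregating proteoglycan, had 172400, 153400, 73370 and 94770 at P14 and 137200, 96020, 89530 and 93740 at P21 (-0.18 ± 0.41, adjusted p = 0.889).

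The calls among collagens were in the fibril-associated group, where 3 of 18 members fell and 0 rose. Col12a1, which coats fibrils in tissues under tension, had 36360, 23030, 19540 and 19860 normalised reads in the 4 P14 samples and 12380, 11720, 8248 and 8717 in the 4 P21 samples. It fell by 1.24 ± 0.25 on the log2 scale (adjusted p = 0.0244), and the groups did not overlap. Col14a1, a related collagen of growing tendon and skin, had 704, 1212, 1578 and 1827 at P14 and 285, 633, 426 and 511 at P21 (-1.49 ± 0.31, adjusted p = 0.0284), and it is also in the growth list. Col16a1, a minor fibril-associated collagen, fell from 6695 to 9385 at P14 to 3976 to 5712 at P21 (-0.74 ± 0.17, adjusted p = 0.048). Adamts3, the protease that trims the amino end of procollagen II, was the 1 call of the processing list and fell from 1261 to 2173 at P14 to 509 to 1273 at P21 (-1.19 ± 0.26), with P21 replicate 2 inside the P14 range.

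The tenascin genes Tnc and Tnr moved in opposite directions. Tnc, tenascin-C of growing and strained connective tissue, had 3842, 8970, 8690 and 8182 normalised reads in the 4 P14 samples and 3488, 2390, 1306 and 1242 in the 4 P21 samples, a log2 difference of -1.88 ± 0.32 (SE; adjusted p = 0.014). P14 replicate 1 was close to P21 replicate 1, and the ages did not overlap. Tnr, tenascin-R, best known from the matrix around neurons, had 178, 273, 323 and 170.1 at P14 and 626, 677, 1212 and 1161 at P21 (1.95 ± 0.35, adjusted p = 0.0152), with P21 replicates 3 and 4 the highest; the part of nervous tissue in this was not tested. At P28 Tnc had 4405 to 7133 and Tnr 784 to 1863, and at P5 7096 to 10920 and 4.55 to 14.6, so the Tnc level was lowest at P21 of the 4 ages. Vcan, the gene of the large proteoglycan versican, had 20880, 37420, 37610 and 33190 at P14 and 59960, 75260, 83730 and 80850 at P21 (1.24 ± 0.29, adjusted p = 0.0465).

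Microfibril genes gave 2 calls of 19, both lower. Fbn2, the fibrillin of early elastic fibres, had 1391, 1576, 1395 and 1448 at P14 and 749, 804, 361 and 411 at P21 (-1.41 ± 0.21, adjusted p = 0.00915) and kept its call with the pair averaged (adjusted p = 0.0385). Emilin1, an elastic fibre glycoprotein, fell from 2023 to 2670 at P14 to 1069 to 1508 at P21 (-0.87 ± 0.20). Eln, elastin itself, had 9449, 8481, 19970 and 6750 at P14 and 7023, 5405, 10030 and 10230 at P21 (-0.37 ± 0.30, adjusted p = 0.613), and Lox, the crosslinking oxidase of elastin and collagen, 20510, 33550, 12640 and 27760 at P14 and 14110, 8419, 10310 and 10200 at P21 (-1.07 ± 0.36, adjusted p = 0.149).

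Among proteases and inhibitors 1 of 21 rose and 1 fell. Mmp2, a gelatinase of fibroblasts, had 3574, 2347, 2027 and 2666 at P14 and 1678, 1247, 887 and 1021 at P21 (-1.14 ± 0.25, adjusted p = 0.0353). Timp4, a tissue inhibitor of metalloproteinases, had 43.7, 82.1, 63.0 and 27.4 at P14 and 153, 215, 557 and 537 at P21 (2.63 ± 0.49, adjusted p = 0.017). A2m, a broad protease inhibitor, showed the steepest fall named by rank, with 635, 719, 398 and 1140 at P14 and 128, 43.5, 61.3 and 75.4 at P21 (-3.23 ± 0.74, adjusted p = 0.0442). Cthrc1, a collagen triple helix protein of fibroblasts that make matrix, fell from 114 to 237 at P14 to 36.0 to 101 at P21 (-1.88 ± 0.36), with P21 replicate 1 above the other 3. Adam12, a transmembrane metalloprotease, and Cxcl14, a chemokine of connective tissue, both picked after their values were seen, fell by 0.99 ± 0.17 and 1.48 ± 0.26 on the log2 scale.

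**Figure D3:**
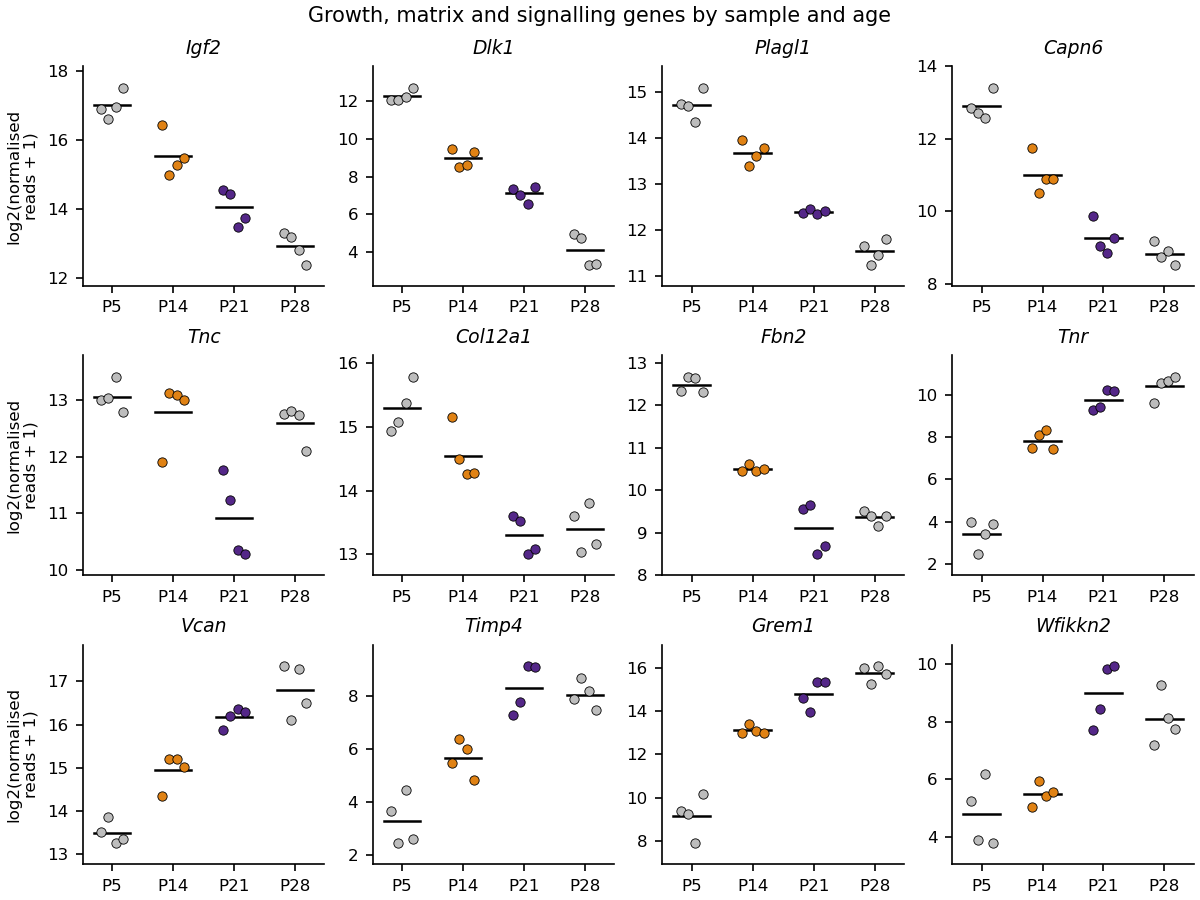
Log2(normalised reads + 1) (y axes, which do not start at 0) of 12 growth, matrix and signalling genes in each of the 4 samples of P5, P14, P21 and P28 (x axes), with P14 in orange and P21 in purple; bars are means. Igf2, Dlk1, Plagl1 and Capn6 step down from age to age in their means, Tnr, Vcan and Grem1 step up, and Tnc has its lowest points at P21.

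Among signalling genes, Grem1, Wfikkn2 and Chrdl2, which code for secreted antagonists, rose, while Sfrp1, a secreted Wnt inhibitor, fell. The 3 that rose were named by different rules and stand for no group. Grem1, a BMP antagonist, had 8118, 10910, 8599 and 8253 normalised reads in the 4 P14 samples and 24680, 15980, 41770 and 41140 in the 4 P21 samples, a log2 difference of 1.69 ± 0.39 (SE; adjusted p = 0.0438) or 3.22-fold. Tgfbr3, the betaglycan coreceptor of TGF-beta, had 1588, 1377, 1485 and 1538 at P14 and 2180, 2391, 3987 and 3777 at P21 (0.99 ± 0.21, adjusted p = 0.0336). These were the 2 calls among 34 TGF-beta and BMP genes, against 1.37% of all genes, and the list median was -0.16. No other antagonist of that list was called. Tgfb1 had 1809, 1731, 1300 and 1201 at P14 and 1534, 1289, 1111 and 1171 at P21 (-0.23 ± 0.17, adjusted p = 0.557). Wfikkn2, a secreted binder of myostatin and related ligands, had 31.9, 59.7, 41.4 and 46.1 at P14 and 208, 349, 917 and 982 at P21 (3.50 ± 0.58, adjusted p = 0.0125), with the near-identical P21 replicates 3 and 4 the highest. Chrdl2, a chordin-like BMP antagonist picked after its values were seen, had 816, 934, 1074 and 978 at P14 and 1583, 2344, 2510 and 2526 at P21 (1.22 ± 0.20, adjusted p = 0.0122).

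The calls of the next lists stand against 1.37% of all genes, and in the FGF list 1 of 17 genes was called. Fgf18, a growth factor for cartilage and bone, had 17.3, 25.7, 25.6 and 20.2 at P14 and 8.71, 7.57, 1.49 and 1.59 at P21 (-2.25 ± 0.45, adjusted p = 0.0244), levels so low that P21 replicates 3 and 4 were under 2 normalised reads. The Wnt list gave 1 call of 33, Sfrp1, with a median of -0.34. No gene of the 13 in the Hedgehog list or the 13 in the Notch list was called, and Gli1, a Hedgehog target, had 1225, 750.4, 1215 and 1002 at P14 and 611, 1701, 675 and 762 at P21 (-0.27 ± 0.28, adjusted p = 0.726). Tgfa, a ligand of the EGF receptor, rose from 492 to 616 at P14 to 663 to 1247 at P21 (0.77 ± 0.18), and the oestrogen receptor gene Esr1 fell from 288 to 435 at P14 to 188 to 205 at P21 (-0.81 ± 0.15); both were picked after their values were seen.

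Of 15 tendon-type genes 2 were called lower, Tnc and Col14a1, and 0 higher, against 0.677% and 0.694% of all genes. Wholly below P14 lay 3 and wholly above it 1, against 3.75% and 4.61%. The median was -0.05, or 0.20 with samples rescaled to the same total. Scx, Mkx, Tnmd and Sox9, followed whatever their result, were not called. Scx, the scleraxis gene, had 9695, 6804, 12880 and 8812 at P14 and 2968, 5210, 2433 and 2578 at P21 (-1.57 ± 0.62, adjusted p = 0.228). It lies inside an intron of Bop1, a ribosome assembly gene, which had 25280, 13310, 30820 and 21520 at P14 and 8978, 12500, 5062 and 5564 at P21 (-1.53 ± 0.86, adjusted p = 0.424), and how reads at this shared locus were divided was not tested. Mkx, the Mohawk homeobox gene of tendon and outer annulus, had 1130, 1764, 2011 and 2044 at P14 and 1585, 1825, 2076 and 2066 at P21 (0.15 ± 0.20), and Tnmd, tenomodulin, 2183, 5325, 2301 and 3697 at P14 and 4364, 2885, 3445 and 3597 at P21 (0.16 ± 0.37). Sox9, the chondrocyte regulator, had 9849, 8389, 6454 and 8605 at P14 and 8254, 7487, 7022 and 7235 at P21 (-0.14 ± 0.28). The adjusted p of these 3 genes was 0.789, 0.891 and 0.877. In the list of chondrogenic and sclerotome regulators 1 of 14 was called, Foxc2, a forkhead gene of the early sclerotome, with 287, 230.5, 349 and 279.7 at P14 and 149, 107, 155 and 174 at P21 (-0.97 ± 0.19, adjusted p = 0.0215). Foxa3, a forkhead gene named by rank, fell from 105 to 188 at P14 to 20.9 to 85.6 at P21 (-1.78 ± 0.40).

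Cell cycle genes gave no call among 30 of S phase and 28 of G2 and M phase, with medians of -0.19 and -0.14 that turned to 0.06 and 0.11 when samples were rescaled to the same total. Mki67 had 2804, 2257, 1263 and 1905 at P14 and 3822, 1250, 1442 and 1506 at P21 (-0.14 ± 0.38, adjusted p = 0.914) and Top2a 874, 647, 374 and 614 at P14 and 1253, 333, 485 and 438 at P21 (-0.14 ± 0.39, adjusted p = 0.918). Both were highest in P21 replicate 1. Without the 3 samples with the most nervous tissue transcripts, with only P21 replicates 3 and 4 at P21, 3 S phase genes were lower.

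Clock output and steroid-responsive genes gave a few rises, and the calls per list here stand against 1.37% of all genes. Hlf and Tef, 2 transcription factors of the clock's output, were the 2 calls of 20 clock genes (median 0.14). Hlf had 131, 149, 156 and 153 at P14 and 335, 310.4, 345 and 325 at P21 (1.16 ± 0.19, adjusted p = 0.0125), a narrow spread at both ages, and Tef 1367, 1396, 1418 and 1292 at P14 and 1795, 2012, 2589 and 2589 at P21 (0.70 ± 0.14, adjusted p = 0.0208). Of 16 glucocorticoid-responsive genes 1 was called and 5 lay wholly above P14 (4.61% of all genes did). In 15 the difference was positive, and the median was 0.72. With P21 replicates 3 and 4 averaged 0 were called, and with those 2 alone at P21, without the samples with the most nervous tissue transcripts, 5 were. The call was Zbtb16, a zinc finger gene induced by glucocorticoids, with 291, 275, 124 and 128 at P14 and 379, 989.8, 1132 and 1077 at P21 (2.12 ± 0.35, adjusted p = 0.0127). The hour of collection is not given in the sources used here. Slc6a6, the taurine transporter used against osmotic stress, had 3487, 3076, 2845 and 2425 at P14 and 4826, 4743, 7811 and 7564 at P21 (1.05 ± 0.18, adjusted p = 0.015) and was the 1 call of 10 osmotic genes, and Ndrg1, a hypoxia-responsive gene, was the 1 call of 28 in glycolysis and hypoxia (0.98 ± 0.23).

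The following 6 metabolic genes were picked one by one after their values were seen and stand for no group. Aldh1l2, a mitochondrial folate enzyme, had 1582, 2185, 3321 and 3065 at P14 and 746, 1312, 1029 and 986 at P21 (-1.29 ± 0.26, adjusted p = 0.0261). Pycr1, the last enzyme of proline synthesis, had 1975, 2147, 1698 and 2197 at P14 and 1002, 1028, 989 and 1024 at P21 (-0.98 ± 0.20, adjusted p = 0.0234), with 4 P21 values within 989 to 1028. Phgdh, which opens serine synthesis, fell from 199 to 235 at P14 to 82.2 to 169.8 at P21 (-0.97 ± 0.23), the mitochondrial carboxykinase Pck2 from 832 to 1084 at P14 to 513 to 635 at P21 (-0.85 ± 0.16), the transaminase Gpt2 from 385 to 599.8 at P14 to 248 to 309 at P21 (-0.79 ± 0.18) and the isoleucyl-tRNA synthetase Iars from 1694 to 1946 at P14 to 1134 to 1379 at P21 (-0.56 ± 0.12).

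No gene of the nuclear oxidative phosphorylation list (0 of 35), the cytosolic ribosomal proteins (0 of 36), the cholesterol list (0 of 24) or the secretory chaperones (0 of 29) was called. The 13 mitochondrially encoded genes had a median of -0.91 and 0 calls. In the samples with a Gm26917 share under 6% that median was 0.13, and mt-Co1 had 252600, 198000, 1205000 and 830100 at P14 and 300700, 198500, 268600 and 256000 at P21, high in the same P14 replicates 3 and 4 in which Gm26917 was high.

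**Figure D4:**
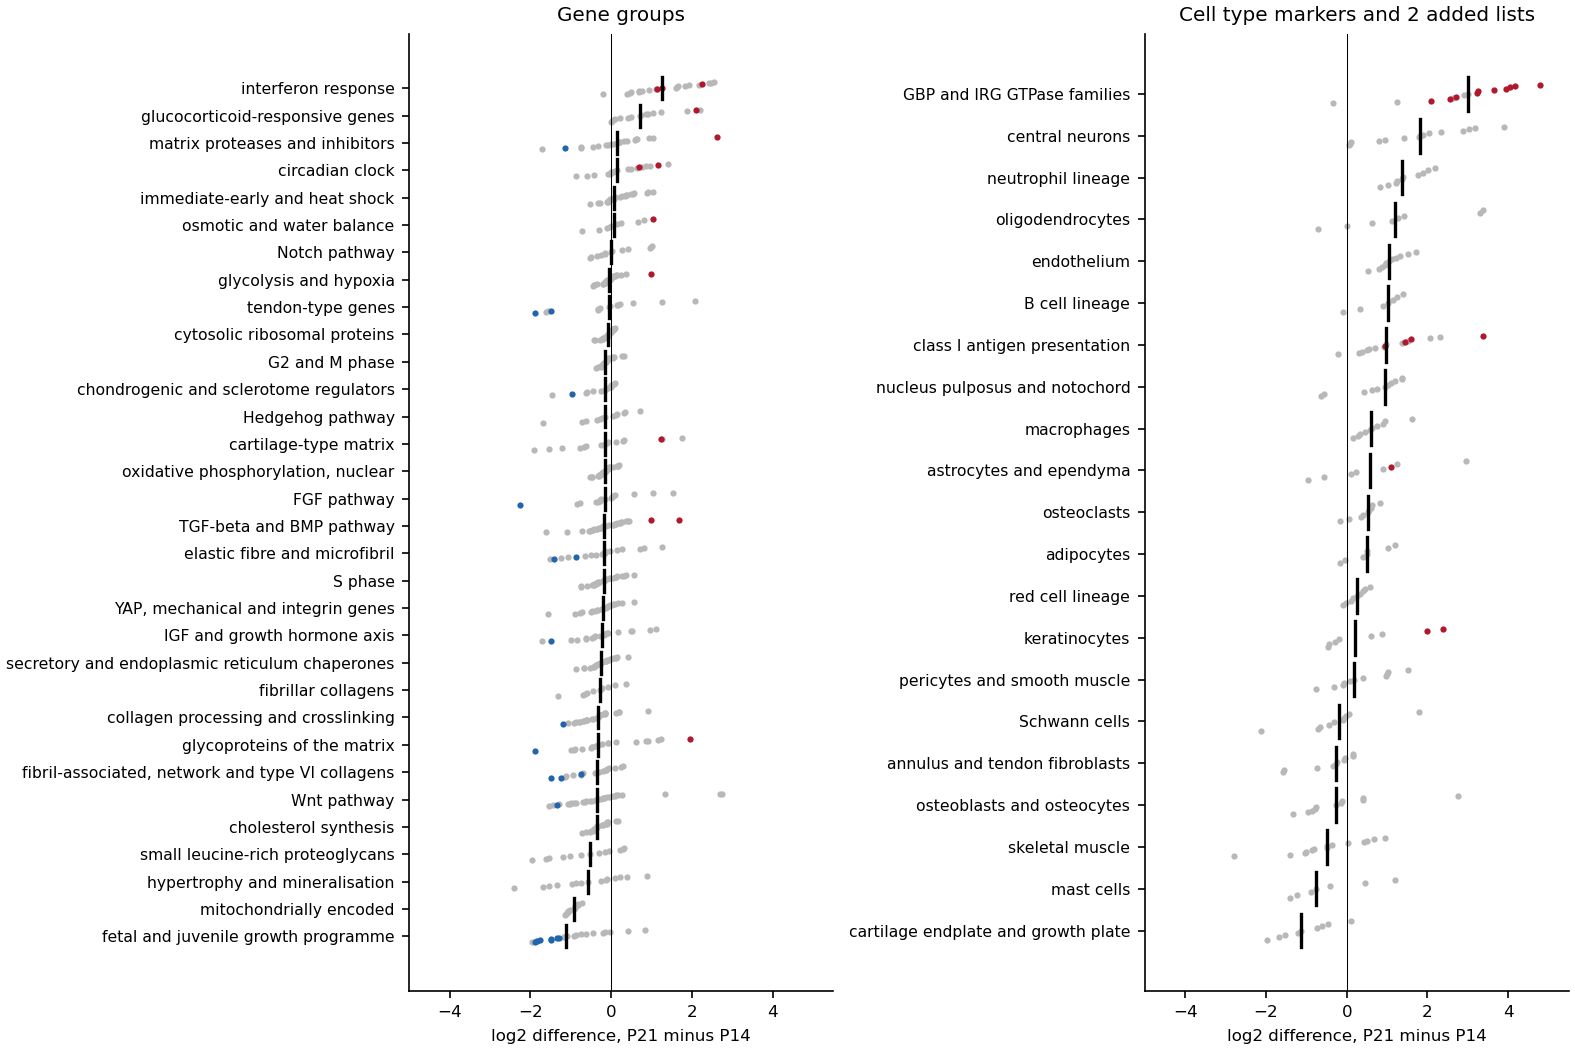
Log2 difference between P21 and P14 (x axes) of each tested member of 32 gene groups (left) and of 19 marker lists and 2 lists added after the leading genes were seen (right); red points were called higher, blue lower, grey were not called, and black bars are list medians. The GTPase families and the interferon list have the highest medians of their panels, and the growth list the lowest of the left panel.

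Short noncoding RNAs were called in 1 direction. Of 84 small nucleolar RNAs tested 14 were called lower (16.7%) and of 63 small nuclear RNAs 6 (9.52%), against 0.677% of all genes. Their median log2 differences were -0.81 and -0.23. Both Y RNAs tested fell, and 0 genes of these types were called higher. Among 95 microRNAs and 10 small Cajal body RNAs 0 were called in either direction. Y RNAs are short transcripts of RNA polymerase III that bind the Ro60 protein and take part in RNA quality control. The 2 are shown because they had the smallest adjusted p of all genes tested. Capitals mark every run of 8 or more bases found in both, the longest of 12 bases, from the GENCODE transcripts of build GRCm38.
Rny1 (chr6:47788069-47788180, minus strand): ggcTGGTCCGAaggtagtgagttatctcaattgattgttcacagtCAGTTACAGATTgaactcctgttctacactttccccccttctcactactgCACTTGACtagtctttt
Rny3 (chr6:47781624-47781725, plus strand): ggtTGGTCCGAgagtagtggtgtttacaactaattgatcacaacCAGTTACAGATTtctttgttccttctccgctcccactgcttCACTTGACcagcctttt

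Rny3 had 2655, 1148, 1574 and 1329 normalised reads in the 4 P14 samples and 253, 128, 294 and 161 in the 4 P21 samples. It fell by 3.00 ± 0.28 on the log2 scale (adjusted p = 0.000174), 7.99-fold, and remained called with the pair averaged (adjusted p = 0.000473). Rny1 had 1292, 566, 1168 and 659 at P14 and 209, 127, 156 and 123 at P21 (-2.52 ± 0.26, adjusted p = 0.000317; adjusted p = 0.00238 averaged). Every P14 value lay above every P21 value in both genes. At P28 the values were 723 to 998 for Rny1 and 924 to 1339 for Rny3, and at P5 at 304 to 549 and 651 to 1213, so every P21 value lay below every value of the other ages. The small nuclear RNA Gm25939 had 808, 342, 467 and 298 at P14 and 120.4, 93.7, 138 and 88.2 at P21 (-2.02 ± 0.31) and the small nucleolar RNA Gm23262 453, 206, 272 and 186 at P14 and 57.3, 45.4, 70.2 and 37.3 at P21 (-2.33 ± 0.29). Gm23262 lies inside Eif4g2, with 89.3% of its bases shared.

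Rmrp, the RNA of the mitochondrial RNA processing ribonuclease, had 78520, 43630, 141800 and 78880 at P14 and 35150, 36810, 27690 and 24770 at P21 (-1.36 ± 0.32, adjusted p = 0.0452), with P14 replicate 3 the highest; all of its bases are shared with another annotation of the same gene. Rn7sk, a longer polymerase III transcript that restrains elongation, had 187000, 145200, 210200 and 181900 at P14 and 239700, 188900, 176900 and 182000 at P21 (0.12 ± 0.32, adjusted p = 0.907), and its groups overlapped. Both were picked after their values were seen. The small nucleolar RNAs summed to 3566 to 7854 normalised reads at P14 and 2889 to 4764 at P21. P14 replicate 3, with the highest sum, was also the sample with the highest Gm26917 share, and the part of that in the fall was not tested.

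**Figure D5:**
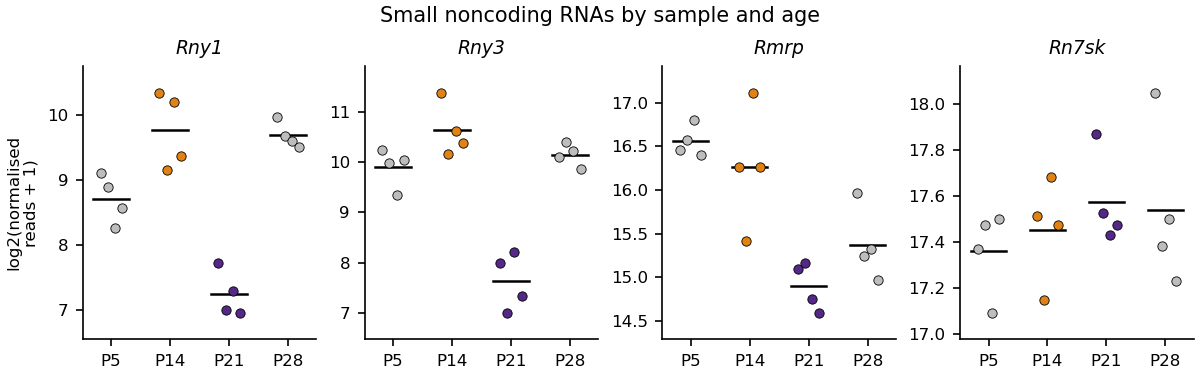
Log2(normalised reads + 1) (y axes, which do not start at 0) of Rny1, Rny3, Rmrp and Rn7sk in each of the 4 samples of P5, P14, P21 and P28 (x axes), with P14 in orange and P21 in purple; bars are means. Rny1 and Rny3 have their lowest points at P21, Rmrp is lower at P21 than at P14, and Rn7sk overlaps between the ages.

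Markers of neighbouring and contaminating tissue gave few calls. The 10 annulus and tendon fibroblast markers had a median of -0.26 and 0 calls, and summed to 2511000 to 4486000 at P14 and 2076000 to 3394000 at P21. The 11 nucleus pulposus and notochord markers had a median of 0.95, and the 9 endplate and growth plate markers one of -1.12, with 0 calls in each. In the samples with a Gm26917 share under 6% these medians were 0.19 and -2.29. The nucleus pulposus markers summed to 6444 to 34710 at P14 and to 65870, 13790, 47440 and 46240 at P21, so the ages overlapped. Col9a1, a collagen of cartilage, had 33340, 13720, 10010 and 13560 at P14 and 11060, 5456, 6276 and 7263 at P21 (-1.12 ± 0.44, adjusted p = 0.218). The 15 central neuron markers had a median of 1.81 and 0 calls. Over the 16 in the table, 1 of them too low to test, the sums were 1705 to 2690 at P14 and 5000, 5497, 1610 and 1518 at P21. All 11 endothelial markers had a positive difference (median 1.05), 0 were called and 3 lay wholly above P14 (4.61% of all genes did). Their sums were 502 to 1429 at P14 and 1852, 1312, 2569 and 2594 at P21, and Pecam1, an endothelial adhesion gene, had 198, 286, 108 and 198 at P14 and 379, 233, 722 and 724 at P21 (adjusted p = 0.129). The 14 muscle markers summed to 164 to 4321 at P14 and 313 to 1771 at P21.

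Of 8 keratinocyte-list genes tested 2 were called higher and 0 lower, against 0.694% and 0.677% of all genes. Only 4 of the 8 had a positive difference, the median was 0.20 and the lowest difference was -0.47. Sbsn, suprabasin, had 439, 672, 447 and 470.0 normalised reads in the 4 P14 samples and 2254, 1420, 2152 and 2261 in the 4 P21 samples, a log2 difference of 1.99 ± 0.25 (SE; adjusted p = 0.00209), and was called with the pair averaged (adjusted p = 0.0157). Dmkn, dermokine, had 24.6, 93.7, 59.1 and 44.7 at P14 and 247, 190.2, 306 and 335 at P21 (2.38 ± 0.42, adjusted p = 0.015). Both are neighbours on chromosome 7, and 6 of the 14 listed keratinocyte genes, Krt14 and Krt1 among them, were not analysed here.

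The remaining genes named by rank were Chodl, Chil3, Inmt and Ms4a4c, all higher. Chodl, a C-type lectin-like membrane gene, had 12.7, 56.4, 23.6 and 43.2 at P14 and 168, 248, 767 and 636 at P21 (3.64 ± 0.80, adjusted p = 0.0347). Inmt, an indolethylamine methyltransferase, had 39.1, 28.2, 11.8 and 18.7 at P14 and 408, 50.1, 385 and 384 at P21 (3.34 ± 0.66, adjusted p = 0.0225), with P21 replicate 2 far below the other 3. Chil3, a chitinase-like gene of myeloid cells, had 13.7, 19.1, 1.97 and 5.77 at P14 and 166, 48.3, 85.9 and 108 at P21 (3.42 ± 0.71), and Ms4a4c, a membrane gene of blood-derived cells, 36.4, 54.7, 15.8 and 47.6 at P14 and 197, 109.8, 399.8 and 338 at P21 (2.69 ± 0.48).

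Other calls were picked after their values were seen, Pdxk and Nedd4l because they held with P21 replicates 3 and 4 averaged. Pdxk, the kinase that makes active vitamin B6, had 268, 320.1, 258 and 272 at P14 and 484, 607, 822 and 781 at P21 (1.24 ± 0.17, adjusted p = 0.00273; adjusted p = 0.0202 averaged), and 39.0% of its exonic bases overlap another annotated gene. Nedd4l, a ubiquitin ligase that limits sodium channels, had 209, 272, 238 and 209 at P14 and 366, 614, 605 and 654 at P21 (1.24 ± 0.17, adjusted p = 0.00273; adjusted p = 0.0202 averaged). Myoc, myocilin, a secreted protein of connective tissue, had 405, 384, 156 and 216 at P14 and 1600, 1051, 1103 and 1204 at P21 (2.18 ± 0.44, adjusted p = 0.0244). Agt, angiotensinogen, rose from 159.6 to 313 at P14 to 554 to 639 at P21 (1.28 ± 0.26), Il6ra, the interleukin-6 receptor chain, from 381 to 519.9 at P14 to 618 to 1437 at P21 (1.09 ± 0.23) and Fhl1, a LIM domain gene, from 2937 to 4824 at P14 to 6634 to 12970 at P21 (1.18 ± 0.28).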

How the data were processed

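The deposited table held the authors' normalised counts per gene, a signal per gene that is a read count divided by a sample's size factor. Per the submitters' processing notes, the tools were Trimmomatic 0.36, STAR 2.5.2b, featureCounts of Subread 1.5.2 and DESeq2, with build GRCm38; the strand setting is not given in the sources used here. Of 17724 genes, the 17577 whose mean reached 10 entered the fit as log2(value + 1) with limma 3.58.1 (R 4.3.3), which fitted all 16 samples with 12 residual degrees of freedom, a mean-variance trend and Benjamini-Hochberg adjustment over all genes tested; adjusted p values in the text are from this fit. Differences on this scale understate the change of low genes. Whole reads were recovered from the steps of the values (100% whole within 0.001); edgeR 4.0.16 on them called 211 genes and DESeq2 1.42.0 called 832, with 3 adjusted p missing. The limma procedure was tested on simulated data.

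Named genes were the 12 largest changes in each direction among called genes with non-overlapping groups and 100 or more normalised counts on average at the age with more, leaving out predicted genes and small RNAs, up to 4 called genes of each list or its 2 most abundant where none was called, and 16 genes followed throughout; others are said to be picked after their values were seen. Genes withheld for evaluation are not reported here. The members and lists were chosen with earlier results of these data known. Replicate numbers were not taken to pair the samples, since the pools were of different mice and the labels name no shared batch. Deviations of same-numbered samples correlated at 0.23, -0.10, 0.21 and 0.21, and those of differently numbered samples at -0.50 to 0.56. Alternatives covered the pseudocount, filter, scaling, samples fitted, covariates and each sample left out. Sequences came from RefSeq (GRCm38.p6) and GENCODE M21.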

Additional observations from a re-analysis of the deposited data

Results flagged for a closer look

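In 230 groups of 4 samples of the genes named, 19 held 1 sample far from the other 3; chance gives about 1 in 20. All values are normalised reads, with the range of the other 3 samples behind.

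P21 replicate 1 stood apart for Cthrc1 (100.8 against 35.96 to 38.11), Mki67 (3822 against 1250 to 1506), Zbtb16 (379.4 against 989.8 to 1132), Col1a2 (524500 against 701100 to 736200), Acan (137200 against 89530 to 96020), Chrdl2 (1583 against 2344 to 2526) and Nedd4l (366.3 against 605.2 to 654.4). P21 replicate 2 stood apart, lower each time, for Inmt (50.15 against 383.6 to 408.4), Xaf1 (122.1 against 195.9 to 209.7), Sbsn (1420 against 2152 to 2261), Gbp5 (45.42 against 96.39 to 109.5), B2m (1750 against 4238 to 4570) and Eif2ak2 (331.2 against 487.2 to 508.3). P21 replicates 3 and 4 were close to identical, which narrows the range of the others in this age.

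At P14, replicate 3 was apart and lower for Irgm2 (21.67 against 53.35 to 60.07), Tap1 (37.43 against 80.74 to 92.84) and Cxcl14 (835.3 against 1195 to 1250). Replicate 1 was apart and lower for Tnc (3842 against 8182 to 8970) and Fhl1 (2937 against 4608 to 4824), and replicate 2 apart and higher for Sbsn (671.6 against 438.7 to 470.0).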

How the results depend on the processing

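Counts of genes higher and lower (122 and 119) stayed within 1.5 times with pseudocount 0.5 (119 and 116), pseudocount 10 (170 and 143), no filter (120 and 116), a mean of at least 100 (93 and 118), quantile normalisation (158 and 147), a robust prior (120 and 116) and edgeR (109 and 102). They were 468 and 51 when rescaled to the same total, 72 and 30 with P14 and P21 alone, 47 and 43 with the replicate block added to that fit, 6 and 7 with P21 replicates 3 and 4 averaged, 353 and 351 without the 3 samples with the most neural transcripts (P21 replicates 3 and 4 alone at P21), 45 and 33 with central neuron markers as a covariate, 1 and 0 in samples under 6% Gm26917 (1680 genes at an unadjusted p under 0.05, limma), 30 and 52 with the Gm26917 share as a covariate, and 458 and 374 with DESeq2. Leaving out 1 sample gave 6 (without P21 replicate 4) to 410 (without P21 replicate 2) higher and 6 to 348 lower, for the same samples. Without P14 replicate 1 the counts were 52 and 50, without P14 replicate 3 33 and 40, without P14 replicate 4 17 and 11, and without P21 replicate 3 7 and 10. Each of these fits left out 1 sample, and the counts moved in both directions. The cause was not tested. Of the genes named, the 84 called kept their direction under each alternative that tested them, and a mean of at least 100 left 68 of them in the fit. In 229 of all 241 called genes the 2 ages do not overlap. For such genes leaving out or averaging samples cannot turn the direction, so those fits do not test it. Among the 31 not called, log2 differences turned when rescaled to the same total for Mki67 (0.11), Col1a2 (0.17), Acan (0.061), Sox9 (0.11), Tgfb1 (0.013) and Top2a (0.11), and with quantile normalisation for Col2a1 (0.32), Col1a2 (0.31) and Acan (0.18). Col1a2 was 0.23 and Rn7sk -0.10 without the samples with the most neural transcripts, Col1a2 0.0071 with the neuron covariate, mt-Co1 0.18 under 6% Gm26917 and Tnmd -0.16 with its share as a covariate. Leaving out 1 sample gave ranges over 0 for Mki67 (-0.50 to 0.036), Col1a2 (-0.21 to 0.10), Acan (-0.41 to 0.0052), Mkx (-0.045 to 0.24), Tnmd (-0.012 to 0.42) and Top2a (-0.54 to 0.10).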
